A study of Mus musculus with 6 samples.

Results

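To describe the ATF4 pathway in bone cells after glucocorticoid exposure, 34 genes of the ATF4 pathway and of amino acid metabolism were taken from an RNA sequencing table of 29616 mouse genes. The genes were chosen by name, as regulators and effectors of the pathway and as enzymes and transporters that handle amino acids, and each was found in the table through its Ensembl identifier. The study sequenced 3 libraries from control mice and 3 from mice given dexamethasone, a synthetic glucocorticoid, all of the C57BL/6 strain. The dexamethasone-treated mice received a daily dose of 0.08 µg/g over 4 weeks, and the study's methods give an age of 8 weeks at the start for its dexamethasone model. Both groups were labelled as bone cells, which the paper describes as Osteocalcin-positive cells isolated from bones after marrow removal, and no transgene or deletion is named for them. The sources used here do not say whether a library came from 1 mouse or from pooled mice, so the p-values below measure only the spread between these libraries.

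ATF4 is a transcription factor of the integrated stress response. Kinases that sense amino acid shortage, unfolded protein, viral RNA or lack of heme phosphorylate the translation factor eIF2α, which lowers general protein synthesis while favouring translation of the Atf4 mRNA, so that ATF4 protein can rise with little change in its transcript. ATF4 and its basic leucine zipper partners then bind composite C/EBP-ATF elements in genes for amino acid synthesis, amino acid uptake, tRNA charging and stress signalling, and in osteoblasts ATF4 is known for its part in amino acid supply and collagen synthesis.

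Because such elements are short, the letters TGATGNAA or the reverse complement TTNCATCA were searched in RefSeq promoters of the GRCm38.p6 build, which is not the GRCm39 build of the deposited table. Each promoter window held 250 bases before and 50 bases after the gene start. A promoter was matched for 29 of the 34 members, and 8 of these 29 (27.6%) held the letters. Among all 27025 genes with such a promoter the share was 4.51%. The 8 genes were Trib3, Nupr1, Chac1, Asns, Got1, Pycr1, Slc1a4 and Slc7a11. The 3 that were differentially expressed after dexamethasone are printed here, because they hold the letters and yet moved in different directions. Each sequence is the 250 bases before the start, read 5′ to 3′ on the minus strand where the gene lies, with the searched letters in capitals. The windows are chr3:50443614-50443863 for Slc7a11, chr6:7693210-7693459 for Asns and chr7:126625471-126625720 for Nupr1.
Slc7a11: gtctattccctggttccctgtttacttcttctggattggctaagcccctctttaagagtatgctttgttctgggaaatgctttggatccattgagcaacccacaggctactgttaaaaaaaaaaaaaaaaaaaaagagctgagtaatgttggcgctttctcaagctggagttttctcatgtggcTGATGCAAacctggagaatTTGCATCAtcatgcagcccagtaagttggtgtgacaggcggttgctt
Asns: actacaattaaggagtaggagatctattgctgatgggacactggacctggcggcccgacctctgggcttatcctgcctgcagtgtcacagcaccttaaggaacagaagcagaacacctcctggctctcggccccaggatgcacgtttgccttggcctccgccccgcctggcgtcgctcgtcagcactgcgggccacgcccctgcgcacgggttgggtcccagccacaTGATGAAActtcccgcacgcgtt
Nupr1: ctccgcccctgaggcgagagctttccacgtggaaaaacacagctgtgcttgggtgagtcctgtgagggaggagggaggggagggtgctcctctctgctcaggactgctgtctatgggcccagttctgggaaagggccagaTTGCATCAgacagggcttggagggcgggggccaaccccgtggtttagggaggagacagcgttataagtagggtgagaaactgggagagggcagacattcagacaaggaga
In Slc7a11 the letters stood once on each strand, starting 66 and 47 bases before the gene start. In Asns they stood 23 bases and in Nupr1 110 bases before it. A match of letters is a description of the sequence, and binding was not measured.

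The libraries held 72596611 to 89910728 reads, and replicates correlated at r = 0.995 to 0.996 on the log2 scale. Of all 29616 genes, 17442 reached a mean of 10 normalized counts and were tested. Of the markers that define osteoblasts, all 10 were differentially expressed. Bglap, which encodes Osteocalcin, lay between 98.2 and 122 normalized counts in the control libraries and between 9.54 and 15.1 in the dexamethasone libraries. Per kilobase of exon this was 174 and 19.8 in the group means, and Bglap2, a second mouse Osteocalcin gene, stood at 687 and 66.4. Col1a1 stood at 146568 and 39798, so both Osteocalcin genes were low for cells described as Osteocalcin-positive. Reads that Bglap and Bglap2 may share were not examined. Of the 9 markers other than Bglap, 7 fell, including Bglap2, Col1a1, Runx2 and Sp7. Spp1 and Dmp1 rose, by 5.25 and 7.16 on the log2 scale. Spp1 went from 33595 to 1279674 normalized counts in the group means. The summed level of all 10 markers was 2008940–2137601 in the control libraries and 2010523–2142462 in the dexamethasone libraries. Lists for other cell types were mixed. Ptprc of leukocytes stood at 1.76 to 5.81 and Cdh5 of endothelial cells at 0 to 2.18 normalized counts over all libraries. None of the 3 tested endothelial markers was called. Kdr, at 334 to 437 over all libraries, rose by 0.25 on the log2 scale (limma adjusted p = 0.00812). Pecam1, at 10.1 to 29.6, rose by 0.74 (limma adjusted p = 0.0419), and Tek did not pass. The summed endothelial list level, mostly Kdr, went from 363–398 to 429–475. Of the 4 tested macrophage and osteoclast markers, Cd68 rose and 3 fell, 1 with a call, and the summed list level, mostly Ctsk, went from 13107–13708 to 8712–9282. Of the 5 tested pan-hematopoietic markers, 2 were called higher (Cd53 and Itgb2) and 2 lower. The summed level of all 7, mostly Arhgdib (log2 fold change 0.15, not called), went from 6699–6961 to 8099–8589 normalized counts. Col2a1 and Sox9 of chondrocytes rose, with a summed list level of 5821–6284 and 22063–24912, while Acan stayed near 0. The part of these markers in the changes of the members was not tested. All 6 markers of proliferating cells rose, and their summed level went from 36709–39172 to 219200–232051 normalized counts. In bulk samples of this kind, a change in the share of a cell type and a change in RNA per cell cannot be told apart.

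Of the 33 tested members, 24 rose and 7 fell in the dexamethasone-treated group at an adjusted p under 0.05, as did 37.2% and 35.2% of all genes tested, and 6 of the 7 that fell were among the 8 regulators and effectors. Levels are normalized counts, which are read counts divided by a size factor for each library, and changes are log2 fold changes of dexamethasone over control from limma on log2(normalized count + 1). A gene was called differentially expressed at a Benjamini-Hochberg adjusted p under 0.05 together with an absolute log2 fold change of 1 or more. Of the 33 members that reached the minimum level, 13 (39.4%) were differentially expressed, against 22.3% of all genes tested. Of these, 11 rose (11.7% of all genes tested did) and 2 fell (10.6%). The members and lists were chosen with earlier results of these data known, so their shares beside all genes are a description and not a test. At an adjusted p under 0.05 alone, 31 members passed, whereas 72.5% of all genes tested did. Glud1 and Slc3a2 did not pass. The median log2 fold change of the members was 0.71, against 0.00071 for all genes tested. In all 33 tested members the control and dexamethasone libraries did not overlap, which also held for 74.7% of all genes tested. When every library was scaled to the same total instead, the median of all genes tested was -0.11 and that of the members 0.60.

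**Figure D1:**
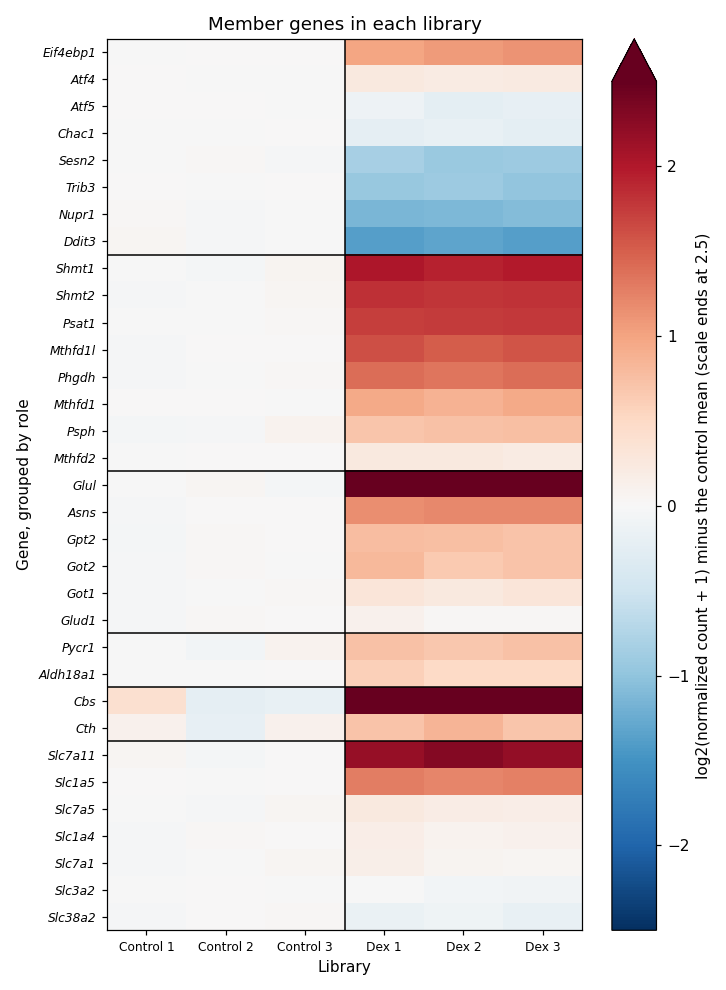
Heat map of the tested members (rows, grouped by role) in the 3 control and 3 dexamethasone libraries (columns). Colour gives the log2 level relative to the mean of the control libraries, and the 5 serine and one-carbon enzymes called differentially expressed, Glul, Cbs and Slc7a11 stand out in all 3 dexamethasone libraries.

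The transcript of Atf4 itself (ENSMUSG00000042406) changed little. It stood at 22836, 22539 and 22485 normalized counts in control replicates 1 to 3 and at 26823, 26059 and 26543 in dexamethasone replicates 1 to 3. Every dexamethasone library was above every control library, but the difference was small beside those of many members. The ratio of the means was 1.17, a log2 fold change of 0.23 (SE 0.0342, n = 3 per group, limma adjusted p = 2.15e-06). Atf5, a related factor that is also translated under stress, fell from 25749 ± 78.2 to 22515 ± 943 (SD, n = 3), a change of -0.19 on the log2 scale (limma adjusted p = 4.48e-05). The log2 ratio of Atf5 to Atf4 within a library went from 0.19 ± 0.0115 to -0.23 ± 0.0407 (SD, n = 3).

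Of the 8 regulators and stress-response effectors, 6 fell and 2 rose, and the median log2 fold change was -0.55. A call was reached by 3 of them (37.5%, against 22.3% of all genes tested). Ddit3 (ENSMUSG00000025408) encodes CHOP, a factor linked to apoptosis in prolonged stress. It stood at 3836, 3603 and 3652 normalized counts in the control libraries and at 1429, 1478 and 1423 in the dexamethasone libraries. The control libraries lay well above, and the groups were far apart compared with the spread inside each. Ddit3 fell by 1.36 on the log2 scale (SE 0.0428, limma adjusted p = 2.46e-19). In the annotation, 6.13% of its exon bases overlapped a second entry with the symbol Ddit3 on the same strand. A further 4.73% overlapped Gm4189 and Mars on the opposite strand. Nupr1 (ENSMUSG00000030717), a small stress-induced nuclear protein, stood at 5012, 4786 and 4864 in the control libraries and at 2226, 2254 and 2314 in the dexamethasone libraries. Its dexamethasone libraries were again all lower, and it fell by 1.11 on the log2 scale (SE 0.039, limma adjusted p = 2.29e-18).

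A further pair of effectors fell by just under the fold required for a call. Trib3, a pseudokinase that restrains ATF4 and CHOP activity, went from 7322 ± 57.9 to 3788 ± 116 normalized counts (SD, n = 3), a change of -0.95 on the log2 scale (limma adjusted p = 1.5e-17). Sesn2, a leucine sensor that inhibits mTORC1, went from 11017 ± 209 to 5941 ± 204, a change of -0.89 on the log2 scale (limma adjusted p = 4.57e-17). Both passed the fold when every library was scaled to the same total, at -1.07 and -1.01. Chac1, an enzyme that degrades glutathione, fell less, from 2508 ± 23.4 to 2158 ± 45.7, a change of -0.22 on the log2 scale (limma adjusted p = 5.16e-05).

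Eif4ebp1 (ENSMUSG00000031490) went the other way. It encodes 4E-BP1, which holds back cap-dependent translation until mTORC1 phosphorylates it. Its levels were 5435, 5524 and 5515 normalized counts in the control libraries and 10869.7, 11455 and 12032 in the dexamethasone libraries. The lowest dexamethasone library was well above the highest control library. Eif4ebp1 rose by a log2 fold change of 1.06 (SE 0.0381, limma adjusted p = 3.65e-18), and it lost the call at the same total per library, where the value was 0.95.

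**Figure D2:**
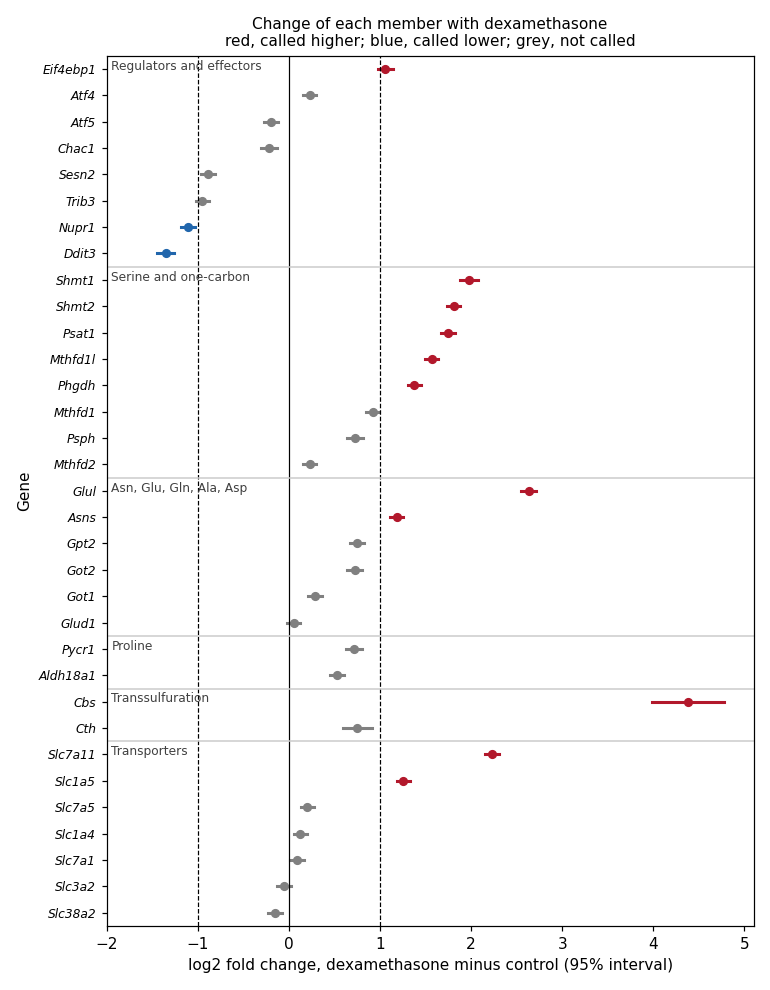
Log2 fold change of each tested member (horizontal axis, dexamethasone over control, n = 3 per group) with its 95% interval from limma, grouped by role. The regulators spread from Ddit3 at -1.36 to Eif4ebp1 at 1.06, all 8 serine and one-carbon enzymes lie above 0, and Cbs is farthest to the right at 4.38.

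All 8 enzymes of serine synthesis and one-carbon metabolism rose, 5 of them with a differential expression call (62.5%, against 22.3% of all genes tested). Their median log2 fold change was 1.47. Their summed level was 2.62 times as high in the dexamethasone group. Serine is made from a glycolytic intermediate by PHGDH, PSAT1 and PSPH in turn. Phgdh (ENSMUSG00000053398), the entry enzyme, stood at 10665, 10691 and 11082 normalized counts in the control libraries and at 28317, 27500.3 and 28328 in the dexamethasone libraries. Psat1 (ENSMUSG00000024640), the aminotransferase of the second step, stood at 18968, 18830.3 and 19452 and at 63431, 63839 and 64544. For both enzymes the lowest dexamethasone library was far above the highest control library. The log2 fold change was 1.38 for Phgdh (SE 0.0345, limma adjusted p = 2.02e-21) and 1.74 for Psat1 (SE 0.0354, limma adjusted p = 2.55e-23). Psph, the phosphatase of the last step, rose less, from 2575 ± 134 to 4252 ± 85.4 (SD, n = 3), a change of 0.72 on the log2 scale (limma adjusted p = 7.44e-14). Only 64.2% of the 75-base windows of Phgdh transcripts were found in no other annotated transcript, the rest being shared with the pseudogenes Gm7901, Gm9347 and Gm8341, so its count is less certain than the others. For Psph, 10.4% of exon bases overlapped Cct6a on the opposite strand, and the strand setting of the count is not given in the sources used here.

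Serine is then split by the serine hydroxymethyltransferases, which pass a one-carbon unit to folate. Shmt1 (ENSMUSG00000020534), the cytosolic enzyme, stood at 750.1, 722 and 785 normalized counts in the control libraries and at 3053, 2870.0 and 2977 in the dexamethasone libraries. Shmt2 (ENSMUSG00000025403), the mitochondrial enzyme, stood at 9493, 9525 and 9934 and at 34304, 33419 and 33823. All dexamethasone libraries exceeded all control libraries for both. Shmt1 rose 3.94-fold in the ratio of means (log2 fold change 1.98, SE 0.0493, limma adjusted p = 1.73e-21), and Shmt2 rose 3.51-fold (1.81, SE 0.0347, limma adjusted p = 7.86e-24). The log2 ratio of Shmt2 to Shmt1 within a library went from 3.68 ± 0.0343 to 3.51 ± 0.0264 (SD, n = 3).

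The folate-bound unit is carried on by the MTHFD enzymes, which differed among themselves. Mthfd1l (ENSMUSG00000040675) makes formate in mitochondria. It stood at 6437, 6656 and 6653 normalized counts in the control libraries and at 20104, 18891 and 19510.3 in the dexamethasone libraries. The groups were widely separated, and Mthfd1l rose by a log2 fold change of 1.57 (SE 0.0354, limma adjusted p = 2.42e-22). Mthfd1, the cytosolic enzyme that takes up formate, rose from 5991 ± 61.6 to 11337 ± 368 (log2 fold change 0.92, limma adjusted p = 1.67e-17). Mthfd2, a mitochondrial dehydrogenase often used as an ATF4 target, rose only from 12731 ± 146 to 14901 ± 261 (0.23, limma adjusted p = 1.81e-06).

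Within a library, the log2 ratio of Mthfd2 to Mthfd1 went from 1.09 ± 0.0297 to 0.39 ± 0.0587, and that of Mthfd1l to Mthfd1 from 0.14 ± 0.0384 to 0.78 ± 0.0147 (SD, n = 3). A ratio within a library does not depend on the scaling of that library. The ratios of 8 pairs of members were compared, and the groups did not overlap in any. The exact two-sided permutation p was 0.1 for each pair, raw and adjusted, which is the smallest that 3 against 3 libraries allow.

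**Figure D3:**
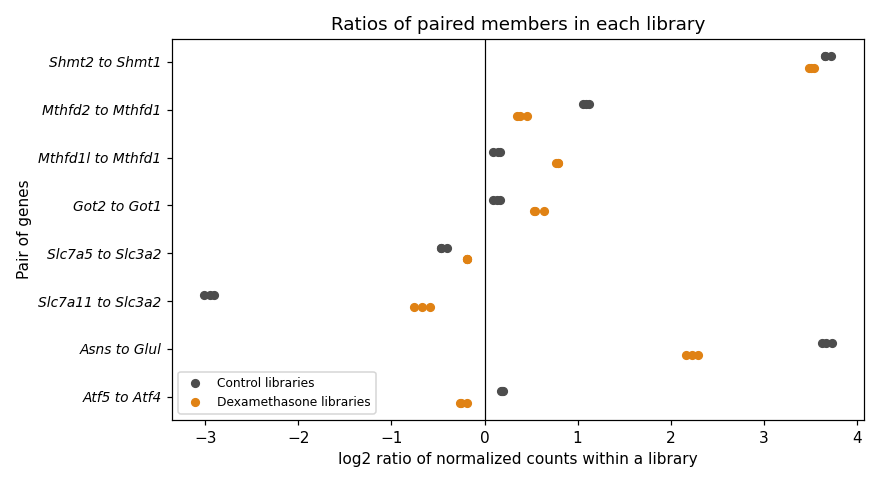
Log2 ratio of normalized counts within each library (horizontal axis) for 8 pairs of members, with each control and dexamethasone library as a point. The ratio of Slc7a11 to Slc3a2 moved farthest, from -2.96 to -0.67 in the group means, and that of Shmt2 to Shmt1 least, from 3.68 to 3.51.

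The proliferating cell markers named above rose by a median of 2.40 on the log2 scale, and growing cells are known to draw on one-carbon units for nucleotides. The part of the proliferating cell markers in the rise of the serine and one-carbon enzymes was not tested.

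Of the 6 enzymes of asparagine, glutamate, glutamine, alanine and aspartate metabolism, 5 rose, 2 of them with a call (33.3%, against 22.3% of all genes tested). The median log2 fold change was 0.73. Glul (ENSMUSG00000026473) encodes glutamine synthetase and is also known as a glucocorticoid-responsive gene in other tissues. It stood at 1717, 1800.4 and 1685 normalized counts in the control libraries and at 11097, 10362 and 10786 in the dexamethasone libraries. The dexamethasone libraries were far above the control libraries, and Glul rose 6.20-fold (log2 fold change 2.63, SE 0.0396, limma adjusted p = 8.02e-26). Of its 75-base windows, 94.1% were found in no other annotated transcript.

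Asns (ENSMUSG00000029752), which makes asparagine from aspartate and glutamine, stood at 21817, 22205 and 22418 in the control libraries and at 49623, 50638 and 50629.8 in the dexamethasone libraries. Again no library of one group reached the other. Asns rose 2.27-fold (log2 fold change 1.18, SE 0.0352, limma adjusted p = 6.85e-20). The log2 ratio of Asns to Glul within a library went from 3.67 ± 0.055 to 2.23 ± 0.0641 (SD, n = 3).

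The transaminases rose by less than the fold needed for a call. Gpt2, the mitochondrial alanine aminotransferase, rose by a change of 0.75 on the log2 scale (limma adjusted p = 2.76e-15), and Got2, the mitochondrial aspartate aminotransferase, by 0.72 (limma adjusted p = 1.68e-14). Got1, the cytosolic counterpart of Got2, rose by 0.29 (limma adjusted p = 1.08e-07). The log2 ratio of Got2 to Got1 went from 0.13 ± 0.041 to 0.57 ± 0.0598 (SD, n = 3), and 87.8% of the windows of Got2 were unique to it. Glud1, which encodes glutamate dehydrogenase, stood at 16877 ± 259 and 17513 ± 529.8, a log2 fold change of 0.053 with a 95% interval of -0.02 to 0.13 (limma adjusted p = 0.18), and its sign turned at the same total per library, where it was -0.061.

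Both proline enzymes rose without reaching the fold for a call. Aldh18a1, which starts proline synthesis from glutamate, went from 16841 ± 114 to 24271 ± 910.2 normalized counts (SD, n = 3), a change of 0.53 on the log2 scale (limma adjusted p = 1.7e-12). Pycr1, which completes proline in mitochondria, went from 2261 ± 122 to 3702 ± 82.3, a change of 0.71 on the log2 scale (limma adjusted p = 1.97e-13). Proline is abundant in collagen, and both type I collagen transcripts fell in the same libraries, Col1a1 by 1.88 (limma adjusted p = 1.24e-18) and Col1a2 by 1.05 on the log2 scale (limma adjusted p = 1.13e-12).

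The transsulfuration enzymes turn homocysteine into cysteine. Cbs (ENSMUSG00000024039), the first of them, was barely detected in the control libraries at 20.2, 12.7 and 13.2 normalized counts, from 22, 13 and 15 reads. In the dexamethasone libraries it stood at 356, 280.1 and 367, from 373, 257 and 316 reads. The dexamethasone libraries were all far higher. Cbs had the largest fold change of the 33 tested members, 21.8-fold in the ratio of means (log2 fold change 4.38, SE 0.19, 95% interval 3.98 to 4.77, limma adjusted p = 2.17e-16), from a level that stayed low per length. Cth, the second enzyme, went from 584 ± 70.2 to 980.0 ± 54.9 (SD, n = 3), a change of 0.75 on the log2 scale (limma adjusted p = 2.34e-09).

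Of the 8 amino acid transporters, 7 were tested. Of these, 5 rose, 2 with a call (28.6%, against 22.3% of all genes tested), 1 fell and 1 did not pass. The median log2 fold change was 0.12, which moved to 0.0094 at the same total per library and to -0.052 under quantile normalization. Slc7a11 (ENSMUSG00000027737) encodes xCT, the light chain of the cystine and glutamate exchanger. It stood at 3896, 3622 and 3794 normalized counts in the control libraries and at 17149, 18557 and 17335 in the dexamethasone libraries. The lowest dexamethasone library was far above the highest control library, and Slc7a11, whose promoter above held the searched letters on both strands, rose 4.69-fold (log2 fold change 2.23, SE 0.0388, limma adjusted p = 1.24e-24).

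Slc1a5 (ENSMUSG00000001918) encodes ASCT2, a carrier of glutamine and other neutral amino acids. It stood at 7447, 7322 and 7411 in the control libraries and at 18026, 17161 and 17718 in the dexamethasone libraries, with no overlap. Slc1a5 rose by a log2 fold change of 1.25 (SE 0.0343, limma adjusted p = 1.26e-20). Its relative Slc1a4, a serine and alanine carrier, rose by 0.12 (limma adjusted p = 0.00288), a sign that turned to -0.052 under quantile normalization.

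Slc7a5, the light chain of the leucine carrier LAT1, rose by a change of 0.20 on the log2 scale (limma adjusted p = 2.46e-05), and Slc7a1, the cationic amino acid carrier CAT1, rose by 0.09 on the log2 scale (limma adjusted p = 0.0286), which turned to -0.024 at the same total per library. Slc3a2 encodes 4F2hc, the heavy chain that xCT and LAT1 share. It stood at 29287 ± 47.7 and 28161 ± 796 (SD, n = 3), a log2 fold change of -0.057 with a 95% interval of -0.13 to 0.016 (limma adjusted p = 0.154). Within a library the log2 ratio of Slc7a11 to Slc3a2 went from -2.96 ± 0.0555 to -0.67 ± 0.0872, and that of Slc7a5 to Slc3a2 from -0.45 ± 0.0376 to -0.19 ± 0.0043 (SD, n = 3). Slc38a2, the amino acid-regulated carrier SNAT2, fell by 0.16 on the log2 scale (limma adjusted p = 0.000484). Slc38a1, the related carrier SNAT1, was left untested, at 2, 4 and 1 reads in the control group and 1, 0 and 2 reads in the dexamethasone group. A count of 0 allows up to 3 reads, which corresponds to 2.64 to 3.49 normalized counts and covers counting error only. Slc38a1 lay below the minimum level of the main comparison and entered only the alternative fit with no filter on low values. Its fold change there is not given.

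Compared per kilobase of annotated exon, the order of the members changed between the groups. In the control group Atf5 (12919.8 normalized counts per kb), Atf4 (9593), Slc3a2 (8299) and Asns (8098) were highest. In the dexamethasone group Asns (18390.1) and Psat1 (15030.1) came first. Atf5 (11297), Phgdh (11283) and Atf4 (11228) followed and lay within 1 SD of each other. Shmt2 moved from rank 14 to rank 6 and Glul from rank 29 to rank 16, while Trib3 moved from rank 11 to rank 21 and Nupr1 from 19 to 29. Cbs was the lowest tested member in both groups, at 2.05 and 44.7 normalized counts per kb. The sum over all members went from 347243–353526 to 530689–542293 normalized counts, a ratio of 1.53, and by role the ratio was 0.913 for the regulators and 1.21 for the transporters.

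**Figure D4:**
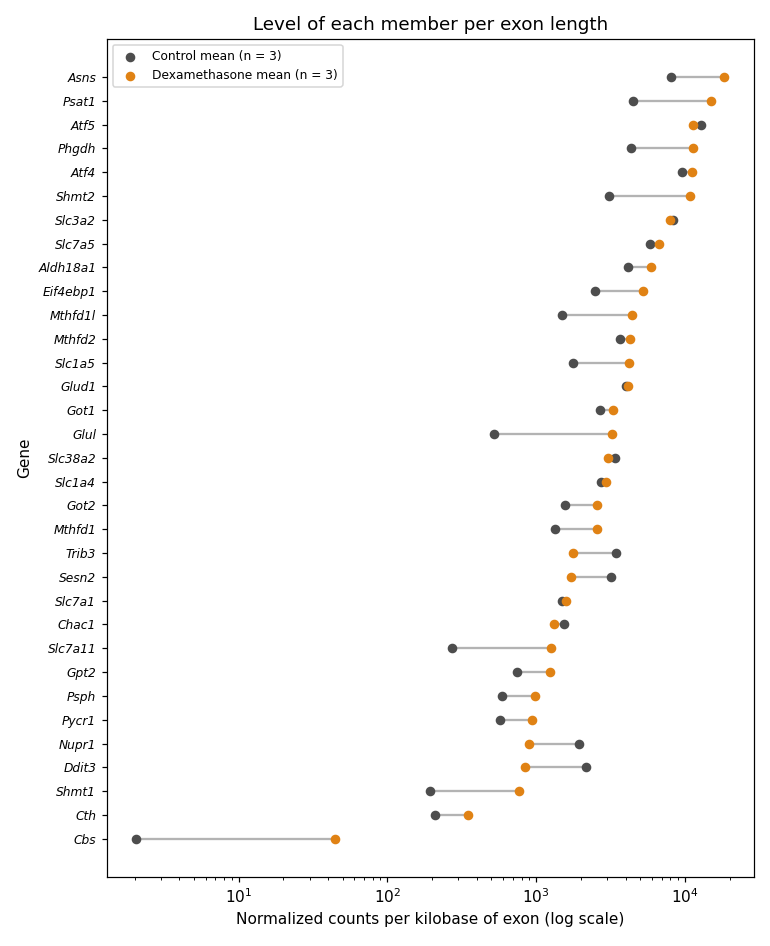
Mean level of each tested member in normalized counts per kilobase of exon (horizontal log axis) in the control and dexamethasone groups, ordered by the dexamethasone level. Asns and Psat1 lead in the dexamethasone group, and Cbs stands at the bottom in both. Slc38a1, which was not tested, is not shown.

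The members that held the searched promoter letters did not stand out by their change. Their median log2 fold change was 0.20, against 0.72 for the 21 tested members with a promoter that lacked the letters. Of the 8 with the letters, Slc7a11 and Asns were called higher, Nupr1 was called lower, and 5 were not called. Slc7a11, with the letters at 2 places, changed by 2.23. Those with the letters at 1 place went both ways. Asns changed by 1.18, Pycr1 by 0.71, Got1 by 0.29, Slc1a4 by 0.12, Chac1 by -0.22, Trib3 by -0.95 and Nupr1 by -1.11.

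The other genes of the pathway were described from 6 lists. Of the 9 genes for eIF2α kinases, their partners and the phosphatase subunits, 3 rose, 3 fell and 3 did not pass, with a median log2 fold change of 0.025 that turned to -0.09 at the same total per library. The 2 genes called (22.2%, against 22.3% of all genes tested) were Impact and Ppp1r15a. Impact, an inhibitor of the amino acid sensor GCN2, fell from 20429 ± 536 to 7742 ± 58.6 normalized counts (SD, n = 3), a change of -1.40 on the log2 scale (limma adjusted p = 1.32e-21). Ppp1r15a encodes GADD34, the stress-induced phosphatase subunit that reverses eIF2α phosphorylation, and fell from 3461 ± 112 to 1602 ± 7.82, by 1.11 on the log2 scale (limma adjusted p = 1.03e-17). Gcn1l1, now Gcn1, an activator of GCN2, rose by 0.28 (limma adjusted p = 1.42e-06). Ppp1r15b, the constitutive phosphatase subunit, stood at 0.053 (limma adjusted p = 0.20) and turned to -0.061 at the same total.

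The bZIP partners of ATF4 mostly rose, 8 of the 9 tested, 3 with a call upward and 1 downward. The share called was 44.4%, against 22.3% of all genes tested, and the median was 0.59. Jun, a subunit of AP-1, rose from 4199 ± 56 to 12565 ± 880.1 normalized counts (SD, n = 3), a change of 1.58 on the log2 scale (limma adjusted p = 5.84e-21), and Cebpb from 1989 ± 61.2 to 4915 ± 437, a change of 1.30 on the log2 scale (limma adjusted p = 1.21e-17). Batf3 rose by 2.24 (limma adjusted p = 8.23e-05) from a level close to detection. Nfe2l2, which encodes the antioxidant factor NRF2 and acts on Slc7a11 as well, rose by 0.41 (limma adjusted p = 7.87e-11), and Cebpg, a dimer partner of ATF4 at amino acid response genes, by 0.27 (limma adjusted p = 6.64e-07). Atf3, an early stress factor that ATF4 induces, was the exception and fell from 1691 ± 43.2 to 437 ± 81.7, by 1.97 on the log2 scale (limma adjusted p = 1.9e-16).

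Among 16 tested other ATF4 target genes, 6 rose, 9 fell and 1 did not pass, with a median log2 fold change of -0.28. The 2 called (12.5%, against 22.3% of all genes tested) were Gdf15 and Bbc3. Gdf15, a secreted stress hormone, fell from 2129.6 ± 113 to 735 ± 31.9 normalized counts (log2 fold change -1.53, limma adjusted p = 2.52e-18). Bbc3, which encodes the pro-apoptotic protein PUMA, fell from 1979.7 ± 61.1 to 527 ± 58.5 (-1.91, limma adjusted p = 1.53e-18). Sqstm1, an autophagy receptor, fell by 0.67 (limma adjusted p = 9.37e-14). Ddr2, a collagen receptor, stood at 0.019 (limma adjusted p = 0.656) and turned to -0.095 at the same total per library.

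The cytosolic aminoacyl-tRNA synthetases, which charge tRNAs and include known ATF4 targets, rose in 18 of 20 at an adjusted p under 0.05. Their 1 call (5.0%) was below the 22.3% of all genes tested, and they had a median log2 fold change of 0.56. Vars rose from 12653 ± 308 to 30886 ± 1565 normalized counts (SD, n = 3), a change of 1.29 on the log2 scale (limma adjusted p = 7.9e-20). Gars rose by 0.73 (limma adjusted p = 1.98e-15), Nars, which is also in the list of other targets, by 0.63 (limma adjusted p = 3.81e-14), and Aars by 0.16 (limma adjusted p = 0.000727). Qars fell by 0.23 (limma adjusted p = 2.49e-05), and Eprs, the enzyme for glutamate and proline, stood at 0.0083 (limma adjusted p = 0.855), with the sign turning to -0.11 at the same total per library.

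**Figure D5:**
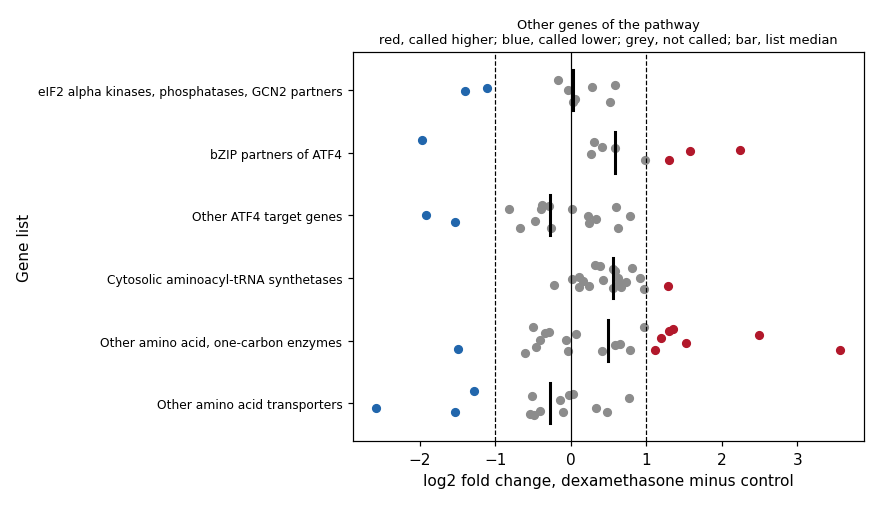
Log2 fold change (horizontal axis, dexamethasone over control) of each tested gene in the 6 other lists of the pathway, 1 point per gene, with the median of each list as a bar. The aminoacyl-tRNA synthetases and bZIP partners lie mostly above 0, with medians of 0.56 and 0.59, and the other amino acid transporters mostly below it, with a median of -0.28.

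Of the 22 tested other enzymes of amino acid and one-carbon metabolism, 12 rose, 7 with a call, 7 fell, 1 with a call, and 3 did not pass. The share called was 36.4%, against 22.3% of all genes tested, and the median log2 fold change was 0.49. Tyms, which makes thymidylate, rose from 1417 ± 32.4 to 7941 ± 108 normalized counts (log2 fold change 2.49, limma adjusted p = 1.39e-25). It is known to rise in cells that replicate their DNA, and the part of the proliferating cell markers in this value was not tested.

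Gclc, the catalytic subunit for glutathione synthesis, rose from 11959 ± 227 to 34372 ± 895 (1.52, limma adjusted p = 3.78e-22). Bcat1, which transfers nitrogen from branched-chain amino acids, rose by 1.30 (limma adjusted p = 2.56e-20), and Ahcy, which releases homocysteine, by 1.20 (limma adjusted p = 5.23e-20). Gls2 was also called higher, at 1.35, and Ass1, which joins citrulline and aspartate, was called lower at -1.49 (limma adjusted p = 4.28e-19). Gls2 and Ass1 were named after their values were seen. Aldh1l2, a mitochondrial folate enzyme, rose by 0.58 (limma adjusted p = 2.1e-13).

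Of the 14 tested other amino acid transporters, 8 fell, 3 with a call, 2 rose and 4 did not pass. The share called was 21.4%, near the 22.3% of all genes tested, and the median log2 fold change was -0.28. Slc6a6, the taurine carrier, fell from 49893 ± 1518 to 20545 ± 873 normalized counts (SD, n = 3), by 1.28 on the log2 scale (limma adjusted p = 1.06e-19). Slc1a3, a glutamate carrier, fell from 3129 ± 96.1 to 1076 ± 14.2, by 1.54 (limma adjusted p = 4.33e-20), and Slc38a4, a neutral amino acid carrier, from 144 ± 12.4 to 23.5 ± 4.17, by 2.58 (limma adjusted p = 1.12e-11). Slc7a2, a cationic amino acid carrier, fell by 0.49 (limma adjusted p = 4.82e-12), and Slc7a6, a light chain that pairs with 4F2hc, rose by 0.47 (limma adjusted p = 7.98e-12).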

How the data were processed

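RNA was prepared into libraries with the KAPA Stranded mRNA-Seq Kit per the labels. Per the submitters' processing notes the authors used STAR 2.7.10a, DESeq2 1.36.0 and GRCm39. Neither the annotation release nor the strand used in counting is given in the sources used here. The deposited signal values are the authors' read counts per gene divided by a size factor for each library, and 100% of them were whole multiples of the value of 1 read, so reads were recovered. All value columns were used. Symbols came from GENCODE M21 (28087 of 29616 identifiers), as did exon lengths, overlaps and transcript windows, which are of GRCm38 and may differ from the authors' annotation.

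Genes whose mean reached 10 normalized counts were compared with limma 3.58.1 (mean-variance trend) in R 4.3.3 on log2(normalized count + 1), which understates the change of low genes, with Benjamini-Hochberg adjustment over all genes tested. The limma scripts were tested on simulated data. Ratios of members were compared with exact permutation tests in scipy 1.17.1. Promoters came from RefSeq (GRCm38.p6). The members and lists were chosen with earlier results of these data known. All members were named, with every library given for Atf4 and the differentially expressed members. From each list the differentially expressed genes, up to the 5 highest by mean level, and the 3 highest genes were named, except some that are not reported here. Qars, Col1a1, Col1a2, Gls2 and Ass1, outside this rule, were named after their values were seen. Alternatives covered the pseudocount, the filter on low values, scaling, edgeR 4.0.16 or DESeq2 1.42.0 on recovered reads, limma without the trend, a replicate block, the fold threshold and each library left out. Replicates differed by more than sampling noise (chi-square per degree of freedom 3.56 to 28.9). The values of 28.9 and 20.0 were those of dexamethasone replicate 3 against replicates 1 and 2, and no other pair exceeded 8.32. All 6 libraries were kept.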

Additional observations from a re-analysis of the deposited data

How the results depend on the processing

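Apart from scaling to the same total, quantile normalization and a call on the adjusted p alone, each alternative left 13 members differentially expressed, and these were the same 13 genes. This held for edgeR, DESeq2, other pseudocounts, other filters, limma without the trend and each library left out. Over all genes, leaving out libraries gave 3888–3922 calls (1953–2099 higher, 1795–1942 lower), edgeR 3944, DESeq2 3870, a pseudocount of 5 3496 and no filter 5326 (2631 higher, 2695 lower). Same-numbered control and dexamethasone libraries did not deviate together (r = -0.0999, -0.105 and -0.0199). With 3 libraries per group this cannot settle whether the numbers pair the libraries. The replicate block gave 3897 genes in all and changed no call of a member. With libraries scaled to the same total or by quantile normalization, 4 members were called lower and 14 in all, 12 of them as before: Trib3 (-1.07 and -1.13) and Sesn2 (-1.01 and -1.07) were gained and Eif4ebp1 (0.95 and 0.87) lost.

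At an adjusted p under 0.05 alone the counts were 31 members (24 higher, 7 lower) and 12645 genes (6497 and 6148). A minimum mean of 100 left 2170 genes called (1350 and 820). At the same total, where the median of all genes moved to -0.11, medians were 0.60 for members, -0.67 for regulators, 1.36 for serine and one-carbon enzymes, 0.62 for the asparagine to aspartate group, 0.51 for proline, 0.0094 for transporters, -0.0895 for eIF2α kinases and partners, 0.47 for bZIP partners, -0.39 for other targets, 0.45 for synthetases, 0.38 for other enzymes and -0.39 for other transporters. Under quantile normalization they were 0.53, -0.72, 1.30, 0.55, 0.45, -0.052, -0.19, then -0.47 for other targets, 0.37 for synthetases and 0.32 for other enzymes. With no filter the medians were 0.62 for members, 0.24 for other enzymes and -0.45 for other transporters, and at a mean of 100 they were 0.58 and -0.41 for the last 2. EdgeR gave -0.00118 for eIF2α kinases and partners.

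Signs turned at the same total and under quantile normalization for Glud1 (-0.061 and -0.16), Slc7a1 (-0.0242 and -0.13), Ppp1r15b (-0.0609 and -0.16), Ddr2 (-0.0951 and -0.0646) and Eprs (-0.11 and -0.0601), and under quantile normalization for Slc1a4 (-0.0521). Ddr2 turned with edgeR (-0.00687), and Eprs with edgeR (-0.0175), DESeq2 (-0.000403) and without dexamethasone replicate 1 (range over libraries left out -0.0212 to 0.0286). Leaving out libraries moved the median of the members between 0.65 and 0.72 and that of the other transporters between -0.37 and -0.27. The cause of these moves beyond the shift in scale was not tested. With 3 libraries per group no exact permutation test can pass 0.05.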

Other observations

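Further lists around the amino acid response were chosen after the values were seen. Of 12 genes for polyamine synthesis and turnover, which draws on ornithine and methionine, 8 rose, 1 fell and 3 did not pass at an adjusted p under 0.05, with a median log2 fold change of 0.51. Only 1 gene was called (8.3%, below the 22.3% of all genes tested). It was Sms, spermine synthase, which went from 1729 ± 17.9 to 4245 ± 52.3 normalized counts (SD, n = 3), a change of 1.30 on the log2 scale (limma adjusted p = 1.2e-19). Smox, which oxidizes spermine, rose by 0.93 (limma adjusted p = 9.63e-15), Azin1, which frees ornithine decarboxylase from its antizyme, by 0.77 (limma adjusted p = 3.32e-16), and Amd1, which supplies the aminopropyl donor, by 0.67 (limma adjusted p = 7e-15). Odc1, ornithine decarboxylase, fell by 0.34 (limma adjusted p = 1.23e-08).

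Of 21 genes for amino acid sensing upstream of mTORC1, 7 rose, 11 fell and 3 did not pass, with a median of -0.12. The share called was 4.8%, below the 22.3% of all genes tested. Sesn3, a relative of Sesn2, was the 1 gene called and fell from 28417 ± 668 to 11507 ± 327 (log2 fold change -1.30, limma adjusted p = 1.17e-20), and Castor1, the arginine sensor, fell by 0.77 (limma adjusted p = 5.55e-11). Of 17 mitochondrial aminoacyl-tRNA synthetases, 11 rose, 2 fell and 4 did not pass, and the median was 0.23. No gene of this list was called, against 22.3% of all genes tested.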
